A study of Equus caballus with 12 samples.

Results

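The let-7 family was described across the heart, lung and liver of the horse. Its members were taken by name, as the entries of the miRNA table whose name starts with eca-let-7, together with eca-miR-98. This gave 7 members, eca-let-7a, eca-let-7c, eca-let-7d, eca-let-7e, eca-let-7f, eca-let-7g and eca-miR-98, of 629 entries in the table, 294 of which bear a miRBase-style horse miRNA name (known miRNAs). The other 335 entries were named by their sequence. The prefix eca, for Equus caballus, is left out from here on. Small RNA was sequenced from the left ventricle of the heart, the caudal lobe of the right lung and the right lobe of the liver. The 4 donors were healthy Polish cold-blooded stallions, yearlings by the study's account, numbered 27, 30, 32 and 34 and sampled at the slaughterhouse. Each horse gave 1 library per tissue, which makes 12 libraries and 4 per tissue. The horses are the replicates, and the same number is the same animal in each tissue. The study set the tissues against each other to find the miRNAs that differ between them, and the let-7 members were compared here in the same way: lung with heart, lung with liver, and heart with liver. These 3 comparisons share libraries.

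The let-7 miRNAs are among the most conserved small RNAs of animals. Their shared seed, bases 2 to 8 of the mature miRNA, pairs with target mRNAs such as those of the RAS genes and HMGA2 and lowers their output. The RNA-binding proteins LIN28A and LIN28B block the maturation of let-7 precursors in early cells, and mature let-7 accumulates as tissues differentiate. Because the members share the seed, they can bind many of the same target sites, while they are made from separate genes. miR-98 belongs to the family in spite of its name.

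The seed, with the letters GAGGUAG, was searched at bases 2 to 8 of the 335 entries named by sequence. It was found in 3 of them (0.896%), and the letters stood at no other position of any of these entries. The sequences are shown because these entries carry the family's seed without its name. They are written 5′ to 3′, with the seed in capitals.
Entry 1, 23 nt: uGAGGUAGuaguuugugcuguug
Entry 2, 18 nt: uGAGGUAGuagauuguag
Entry 3, 18 nt: uGAGGUAGaaguuuguaa
Over the first 18 bases, counted from 1 at the 5′ end, entry 2 differed from entry 1 by U12A, G17A and C18G, and entry 3 by U9A, G17A and C18A. Entries 1 and 2 were above 0 in 12 of 12 libraries. Entry 3 was listed in 1 library, the lung of horse 32, at 98.2 normalized counts. No entry of the table is named let-7b or let-7i, and entry 1 was not assigned to a name. These 3 entries were kept apart from the 7 named members, so the family sum and shares below are those of the named members. Results that change when the 3 entries are added are given with both values.

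The values are read counts that the authors divided by a size factor for each library with DESeq2 (normalized counts). The step in each library, its lowest value above 0 divided by the minimum of 6 reads that the study's methods state, gave 8113895 to 9355513 reads in the table per heart library, 3536536 to 7560746 per lung library and 3066869 to 8595569 per liver library. On that basis the 7 members together rested on 363452 to 1792109 reads per library, and miR-98, the lowest of them, on 1454 to 11462. Counting error was therefore small beside the differences between horses. Libraries of the same tissue correlated with a Pearson r of 0.902 to 0.977 across known miRNAs (18 pairs, log2 scale, and miRNAs are not independent replicates). The tissue labels were checked against marker miRNAs. The sum of 5 heart muscle miRNAs was 5460419 to 8413936 in the heart libraries and at most 12572 elsewhere. The sum of 3 hepatocyte miRNAs was 983907 to 1394321 in liver and at most 3278 elsewhere. The sum of 8 miRNAs of airway epithelium and multiciliated cells was 85166 to 121078 in lung and at most 7487 elsewhere. Of the leukocyte list, 5 of 8 miRNAs were in the table, with a sum of 30464 to 89300 in lung, 11350 to 13414 in heart and 12462 to 21814 in liver. Of the red blood cell list, 2 of 3 were in the table, with a sum of 66906 to 160133 in the hearts, 25239 to 66840 in the lungs and 4150 to 6888 in the livers. In heart 1 of these 2 was at 0 in all 4 libraries, so the heart sum rests on the other alone. The part of blood cells in the let-7 values was not tested. In bulk tissue, fewer cells of a type and less RNA per cell cannot be told apart.

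let-7a was the most abundant member in every library. Its levels in horses 27, 30, 32 and 34 were 274916, 411747, 485588 and 935643 normalized counts in heart, 887908, 693260, 625338 and 442102 in lung, and 665221, 498978, 479010 and 717077 in liver. The means were 526974 ± 286085 (SD, n = 4) in heart, 662152 ± 184129 in lung and 590072 ± 118898 in liver. The tissues overlapped, with the highest and the lowest value both in heart. By its mean, let-7a ranked 5 among the known miRNAs of the heart, 2 in lung and 3 in liver.

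let-7f came next. Its levels, in the same order of horses, were 87676, 137514, 179931 and 412387 normalized counts in heart, 166210, 146754, 160012 and 81766 in lung, and 178741, 148601, 118030 and 219550 in liver. Its means were 204377 ± 143707 in heart, 138686 ± 38804 in lung and 166230 ± 43334 in liver (SD, n = 4), and its values overlapped between all tissues. let-7g was lower than let-7f in 12 of 12 libraries. It stood at 49167, 85074, 108554 and 227699 normalized counts in heart, at 120216, 114568, 133358 and 74083 in lung, and at 156621, 125755, 111943 and 164288 in liver. Its means were 117624 ± 77340, 110556 ± 25558 and 139652 ± 24871 in heart, lung and liver (SD, n = 4), again with overlap. let-7f ranked 11 in heart, 7 in lung and 5 in liver by its mean, and let-7g ranked 17, 11 and 9.

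The other 4 members were lower by an order of magnitude or more than let-7a. let-7c ranged over 21114 to 35387 normalized counts in the hearts, 14409 to 29355 in the lungs and 22633 to 40769 in the livers. For let-7e the ranges were 9618 to 24377, 6854 to 13485 and 11580 to 23442, in the same order. These ranges overlapped in every pair of tissues. let-7d varied little in lung (10786 to 12690 normalized counts) and in liver (9991 to 11766) and more in heart (7459 to 19390). miR-98 had 1808, 3035, 6271 and 6087 normalized counts in heart, 5882, 5782, 8042 and 5415 in lung, and 6542, 7428, 7313 and 6584 in liver. Its means were 4300 ± 2228, 6280 ± 1191 and 6967 ± 469 (SD, n = 4), and all 4 liver values lay above all 4 heart values. By their means over all libraries the members stood in the order let-7a, let-7f, let-7g, let-7c, let-7e, let-7d and miR-98. Each step of this order held in 12 of 12 libraries, except that let-7e was above let-7d in 9 of 12 (3 of 4 in heart, 2 of 4 in lung and 4 of 4 in liver). The preference of adapter ligation for some sequences, which bears on the order of different miRNAs, was not tested, and reads of members that differ by few bases may have been counted under another member's name.

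**Figure D1:**
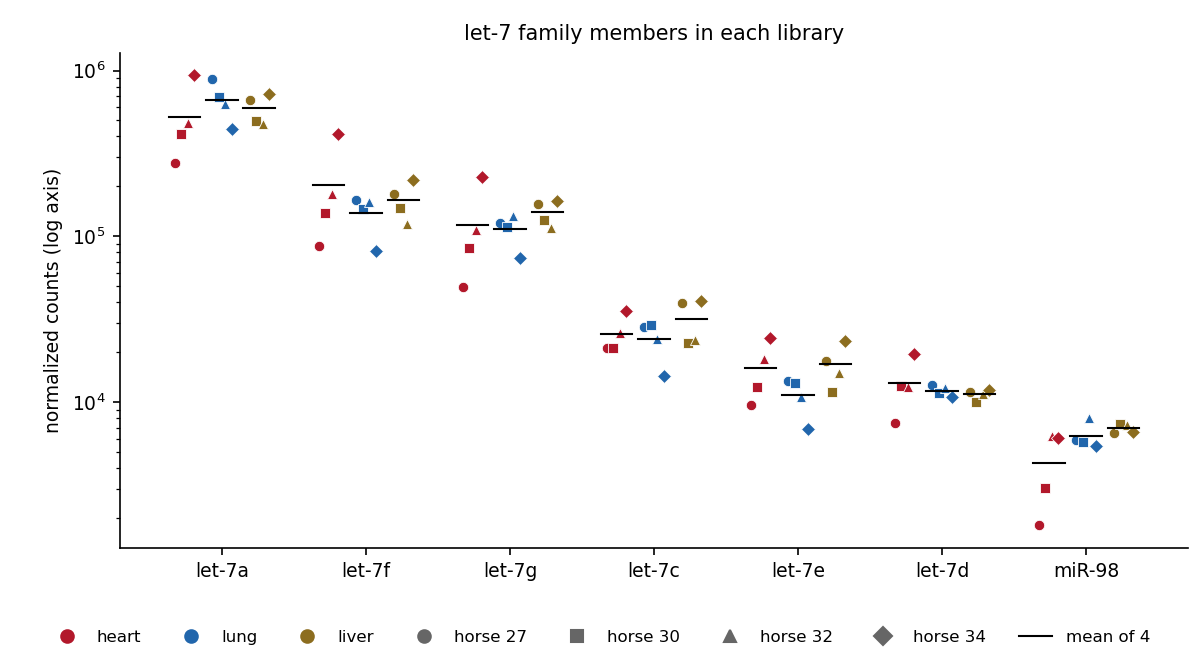
Normalized counts of the 7 let-7 members on a log axis, with a symbol for each horse, a colour for each tissue and a bar at the mean of 4 libraries. The order of the members is the same in all tissues by the mean except between let-7e and let-7d in lung, while the spread between the hearts of different horses, such as 274916 to 935643 for let-7a, is as wide as any difference between tissues.

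The horses did not rank alike in the 3 tissues. The heart of horse 34 was the highest of the 4 hearts in 6 of the 7 members, the exception being miR-98, and the lung of horse 34 was the lowest of the 4 lungs in all 7. The sum of the 7 members was 451853, 683405, 836890 and 1660970 normalized counts in the hearts of horses 27, 30, 32 and 34, with a mean of 908279 ± 526160 (SD, n = 4). It was 1234900, 1013977, 973664 and 635415 in lung, with a mean of 964489 ± 247618, and 1075725, 824966, 766160 and 1183476 in liver, with a mean of 962582 ± 199262. The range of the hearts enclosed that of the lungs and that of the livers. The mean log2 sum differed by 0.21 between lung and heart, by -0.01 between lung and liver and by -0.23 between heart and liver. Since the members were chosen with results of these data known, no test was made of the sum. These differences were small beside the spread between horses, and their signs changed with single libraries. Without the heart of horse 27, the lung versus heart difference was -0.07 and the heart versus liver difference 0.05, and without the heart of horse 34 they were 0.56 and -0.57.

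As a part of the library the sum looked different. The 7 members took 4.48, 5.73, 8.10 and 11.0% of all known miRNA counts in the hearts of horses 27, 30, 32 and 34, with a mean of 7.32% ± 2.86 (SD, n = 4). They took 26.0, 23.1, 19.4 and 16.7% in lung, with a mean of 21.3% ± 4.10, and 19.4, 17.1, 17.6 and 21.4% in liver, with a mean of 18.9% ± 1.94. All hearts lay below all lungs and all livers, and lung and liver overlapped. A percentage of a library depends on the other miRNAs in it. miR-1, a miRNA of striated muscle, took 43.2 to 51.7% of the known miRNA counts in heart (median 46.5%), miR-122, a miRNA of hepatocytes, took 21.1 to 24.5% in liver, and miR-26a took 16.3 to 21.1% in lung. With these 3 miRNAs left out of every library, the members took 16.1% ± 7.20 in heart, 25.9% ± 4.52 in lung and 30.0% ± 3.22 in liver. On this base the heart of horse 34, at 26.0%, lay inside the range of the lungs, which was 21.2 to 31.2%, and below the lowest liver at 26.6%.

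**Figure D2:**
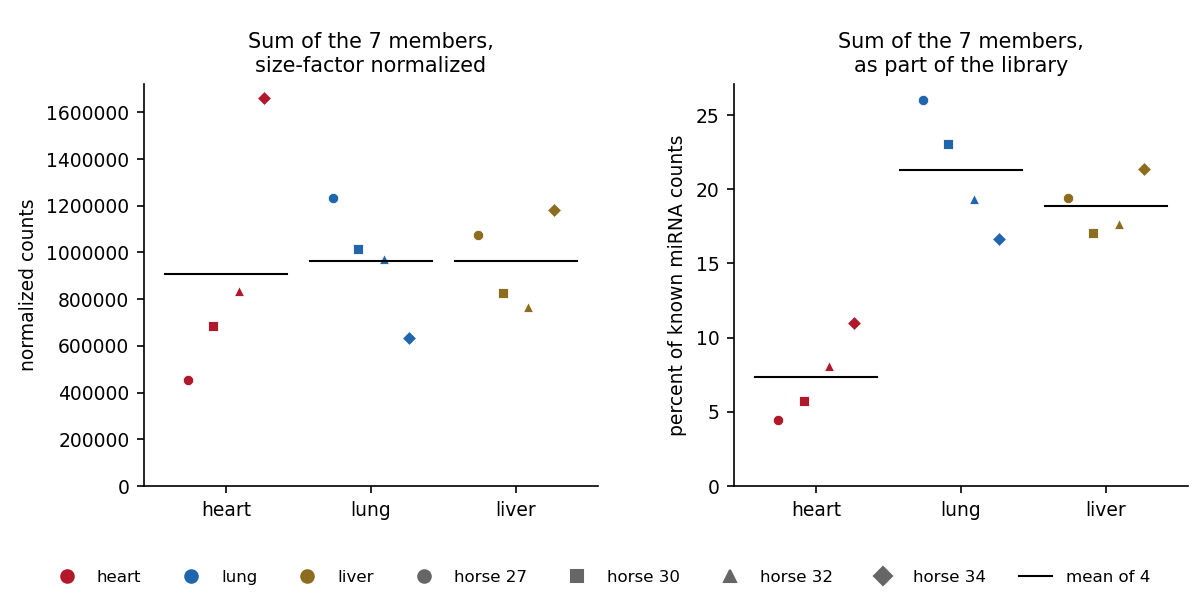
Sum of the 7 let-7 members in each library, as DESeq2-normalized counts on the left and as percent of the known miRNA counts of the library on the right, with a bar at the mean of 4 libraries. The hearts span 451853 to 1660970 normalized counts and enclose the other tissues on the left, while on the right all hearts (4.48 to 11.0%) lie below all lungs (16.7 to 26.0%) and livers (17.1 to 21.4%).

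None of the 7 named let-7 members was called differentially expressed between any pair of tissues. The unnamed entry 1, which carries the seed, was called higher in lung than in heart and liver in a separate fit, given below. Known miRNAs that reached 10 normalized counts in 4 or more libraries, 256 in number and all 7 members among them, entered a limma fit on log2(normalized count + 1). A call needed a Benjamini-Hochberg adjusted p below 0.05 together with a change of 1 or more on the log2 scale in either direction. In lung versus heart 0 of 7 members were called, where 38.7% of all miRNAs tested were. In lung versus liver it was 0 of 7 against 51.6%, and in heart versus liver 0 of 7 against 46.9%. At an unadjusted p under 0.05 the counts were 0, 0 and 1. Of the members, the values of 0, 0 and 1 did not overlap between the tissues of these comparisons, where 44.5%, 52.7% and 52.3% of all miRNAs tested did not.

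The estimates were small and their intervals wide. In lung versus heart, let-7a differed by a log2 fold change of 0.43 (95% confidence interval -0.32 to 1.18). Its value was 0.14 (-0.61 to 0.90) for lung versus liver and -0.29 (-1.04 to 0.46) for heart versus liver. For let-7f the values were -0.37 (-1.30 to 0.56), -0.28 (-1.20 to 0.65) and 0.09 (-0.83 to 1.02). Without single horses or libraries, 10 of the 21 estimates of the members changed sign. These intervals leave room for a change of more than 1 on the log2 scale, so the absence of a call does not show equal levels. Over the 7 members the log2 fold change ran from -0.51 (let-7e) to 0.71 (miR-98) in lung versus heart, with adjusted p from 0.123 to 0.865 in limma and a median of -0.06, beside 0.00 over all miRNAs tested. In lung versus liver it ran from -0.62 (let-7e) to 0.14 (let-7a), with adjusted p from 0.141 to 0.821 and a median of -0.28, beside 0.08 over all. In heart versus liver it ran from -0.87 (miR-98) to 0.14 (let-7d), with adjusted p from 0.0542 to 0.868 and a median of -0.27, beside -0.23 over all.

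miR-98 came nearest to a call. Its gene lies within the span of HUWE1, a ubiquitin ligase gene on the X chromosome. In heart versus liver its log2 fold change was -0.87 (SE 0.35, 95% confidence interval -1.64 to -0.10), with an adjusted p of 0.0542 and an unadjusted p of 0.0307 in limma. Without the heart of horse 27 it was -0.51 with an adjusted p of 0.127 in limma. Without the heart of horse 32 it was -1.11 with an adjusted p of 0.0231, and without the heart of horse 34 it was -1.10 with an adjusted p of 0.0237, so that miR-98 was then called. Without all 3 libraries of a horse it was not called. It was then -0.54 without horse 27 (adjusted p = 0.191 in limma), -1.09 without horse 32 (adjusted p = 0.0646) and -1.12 without horse 34 (adjusted p = 0.0522). The hearts of horses 27 and 30, with 1808 and 3035 normalized counts, lay lower than the other hearts.

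The size of the changes of the members against heart depended on how the libraries were scaled. For let-7c, let-7d, let-7e and let-7f the direction also depended on it, in at least 1 comparison. When every library was brought to 1 total (CPM), all 7 members were higher in lung than in heart, by a log2 fold change of 0.83 to 2.04, and 5 of 7 were called, where 53.7% of 257 miRNAs were. let-7e (0.83, adjusted p = 0.0195 in limma) and let-7f (0.96, adjusted p = 0.0205) passed the p but not the fold. All 7 were lower in heart than in liver, by -2.07 to -1.05, and 7 of 7 were called, where 63.8% of all miRNAs were. In lung versus liver 0 of 7 were called, with log2 fold changes of -0.48 to 0.28, where 52.1% of all miRNAs were. The rescaling shifted the median over all miRNAs, on the log2 scale, by 1.26 in lung versus heart, by -1.16 in heart versus liver and by 0.14 in lung versus liver. With it, 122 miRNAs were higher and 16 lower in lung than in heart, in place of 50 and 49, and 26 were higher and 138 lower in heart than in liver, in place of 51 and 69. Relative to the median of all miRNAs in the rescaled fit, the 7 members stood between -0.43 (let-7e) and 0.78 (miR-98) in lung versus heart and between -0.67 (miR-98) and 0.34 (let-7d) in heart versus liver. The part of miR-1, with its large share of the heart libraries, in this shift was not tested. TMM scaling gave 0 of 7 in each comparison, as the deposited scale did.

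**Figure D3:**
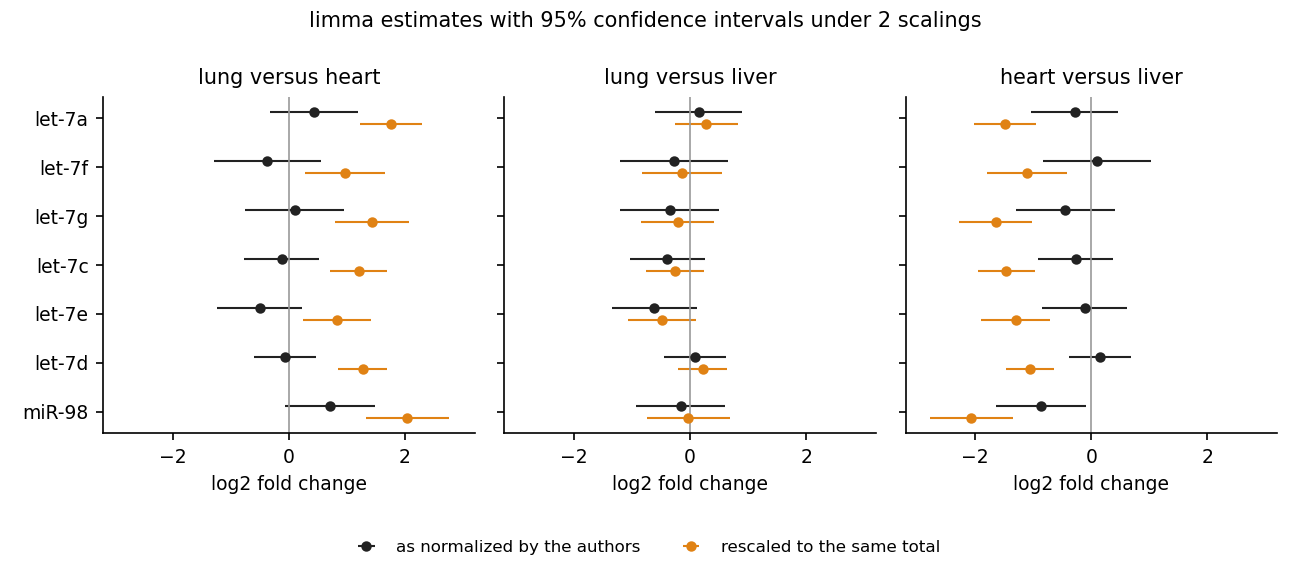
Log2 fold changes of the 7 let-7 members from limma with 95% confidence intervals, in black on the DESeq2-normalized scale and in orange after rescaling each library to the same total. Against heart all 7 members move by more than 1 with the scaling, and let-7c, let-7d, let-7e and let-7f change sign in at least 1 comparison, while in lung versus liver both scalings leave all 7 intervals across 0.

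The composition of the 7 named members does not depend on the scaling, since the share of a member in the sum is formed within a library. It did differ between tissues. let-7a made up a larger share in lung than in heart or liver, let-7f a larger share in heart than in lung or liver, let-7g a larger share in liver than in heart or lung, and let-7e a smaller share in lung than in heart or liver. Each of these 8 differences had no overlap between the 4 libraries of the tissues and the same direction in 4 of 4 horses. Each gave p = 0.0286 in an exact two-sided permutation test, the smallest that 70 splits of 4 against 4 libraries can give. Both this p and the shared direction follow from the lack of overlap and add no support to it. In all, 21 such tests were made (7 members, 3 comparisons), and these p-values are not adjusted for that number. The shares add up to 100% in each library, so a larger share of 1 member lowers those of the others. With the 3 unnamed seed entries added to the sum, the share of let-7a in lung overlapped with that in heart and in liver. The other 13 tests had overlapping values. In level, 44.5%, 52.7% and 52.3% of all miRNAs tested had no overlap in lung versus heart, lung versus liver and heart versus liver. The like figure for shares of other miRNAs was not formed.

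let-7a took 60.8, 60.2, 58.0 and 56.3% of the sum in the hearts of horses 27, 30, 32 and 34, 71.9, 68.4, 64.2 and 69.6% in lung, and 61.8, 60.5, 62.5 and 60.6% in liver. The means were 58.9% ± 2.08 in heart, 68.5% ± 3.22 in lung and 61.4% ± 0.989 in liver (SD, n = 4). All 4 lungs were above all other libraries, by 9.66 percentage points on average over heart and by 7.16 over liver. Heart and liver overlapped, although the heart was the lower in 4 of 4 horses (difference -2.50 points, p = 0.114 in the exact permutation test).

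let-7f took 19.4, 20.1, 21.5 and 24.8% in heart, 13.5, 14.5, 16.4 and 12.9% in lung, and 16.6, 18.0, 15.4 and 18.6% in liver. Its means were 21.5% ± 2.41, 14.3% ± 1.56 and 17.1% ± 1.42 (SD, n = 4), so that the lung share fell by 7.15 points from that of heart, and heart exceeded liver by 4.32 points. Lung against liver gave -2.84 points with overlap (p = 0.0571 in the exact permutation test). let-7g took 10.9, 12.4, 13.0 and 13.7% in heart, 9.73, 11.3, 13.7 and 11.7% in lung, and 14.6, 15.2, 14.6 and 13.9% in liver. All 4 livers were above all other libraries, by 2.07 points over heart and 2.98 over lung on average, but the margin was narrow, as the lowest liver stood at 13.9% and the highest heart and lung at 13.7%.

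let-7e is a minor member, and its share was 2.13, 1.80, 2.17 and 1.47% in heart, 1.09, 1.28, 1.11 and 1.08% in lung, and 1.64, 1.40, 1.95 and 1.98% in liver. Its means were 1.89% ± 0.328, 1.14% ± 0.0942 and 1.74% ± 0.273 (SD, n = 4), and all lungs lay below all other libraries. For let-7c, let-7d and miR-98 the shares overlapped in every pair of tissues. let-7c took 3.25% ± 1.06 in heart, 2.48% ± 0.287 in lung and 3.24% ± 0.401 in liver, let-7d took 1.53% ± 0.286, 1.27% ± 0.298 and 1.18% ± 0.202, and miR-98 took 0.490% ± 0.176, 0.681% ± 0.187 and 0.755% ± 0.202 (SD, n = 4). The share of miR-98 was lower in heart than in lung and than in liver in 4 of 4 horses, with p = 0.171 and p = 0.114 in the exact permutation tests.

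Tissue labels were exchanged within each horse over all 3 tissues (1296 arrangements, exact), for shares in the sum of the 7 named members. The spread of the tissue means gave p = 0.00463 for let-7a in this permutation test, the smallest possible. It gave p = 0.00926 for let-7f, 0.0139 for let-7g and 0.0324 for let-7e in the same exact permutation test, and 0.0741 to 0.287 for the other 3 members. These p-values are not adjusted for the 7 tests made, and the shares depend on each other. For a single pair of tissues, sign changes within 4 horses cannot give less than p = 0.125 in an exact test, so no pair could pass 0.05 with the horse as a block. With 1 horse left out, let-7a in lung exceeded heart by 8.46 to 10.8 points on average. Overlap cannot arise by leaving libraries out, so it was not read from these subsets.

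**Figure D4:**
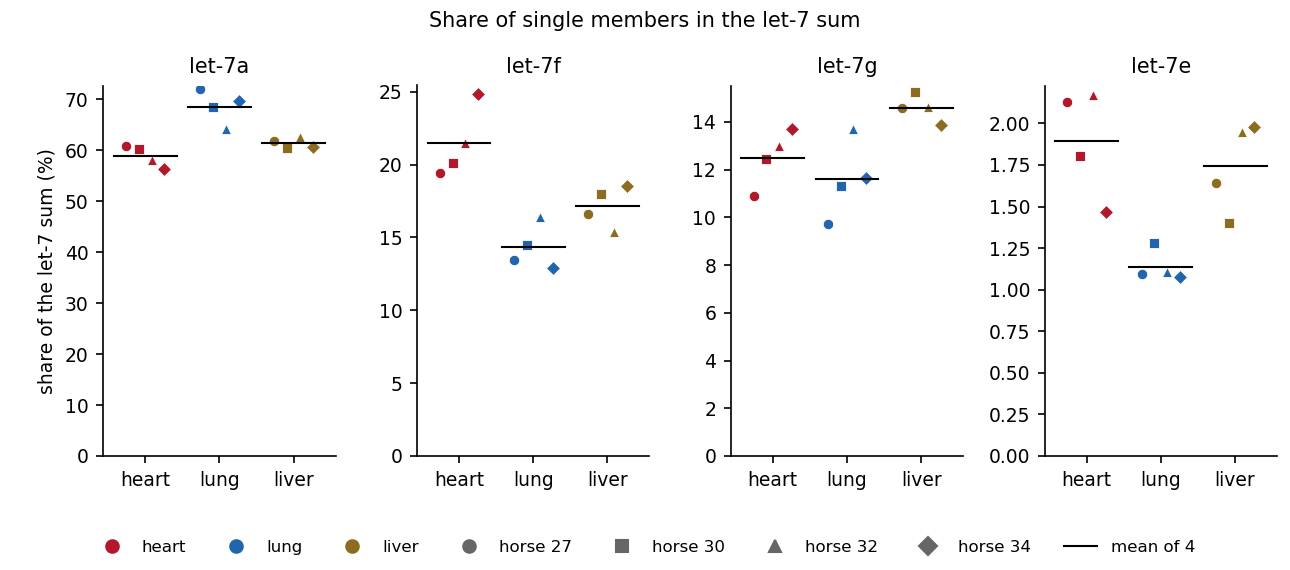
Share of let-7a, let-7f, let-7g and let-7e in the sum of the 7 members, in percent, with a symbol for each horse and a bar at the mean of 4 libraries. let-7a is higher in all 4 lungs (64.2 to 71.9%) than elsewhere, let-7f in all 4 hearts (19.4 to 24.8%), let-7g in all 4 livers (13.9 to 15.2%), and let-7e is lower in all 4 lungs (1.08 to 1.28%). With the unnamed seed entries added to the sum (not drawn), let-7a in lung overlaps with heart and liver.

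Ratios between members within a library are free of the constraint that shares add up to 100%. Among the named members, ratios to let-7a were formed only for let-7f, let-7g and let-7e, whose shares had differed above. They use the same libraries as the shares and are not separate support for them. The ratio of let-7f to let-7a was 0.319 to 0.441 in heart, 0.246 to 0.306 in liver and 0.185 to 0.256 in lung. The mean log2 ratio differed by -0.80 in lung versus heart and by 0.38 in heart versus liver (both p = 0.0286 in exact permutation tests), while lung and liver overlapped (-0.42, p = 0.0571 in the same test). The ratio of let-7g to let-7f was 0.552 to 0.619 in heart, below all lungs (0.723 to 0.906) and all livers (0.748 to 0.948). Its log2 difference was 0.47 in lung versus heart and -0.55 in heart versus liver (both p = 0.0286 in exact permutation tests). The ratio of let-7e to let-7a was 0.0152 to 0.0187 in lung, below heart (0.0261 to 0.0374) and liver (0.0232 to 0.0327), with log2 differences of -0.94 in lung versus heart and -0.76 in lung versus liver (both p = 0.0286 in exact permutation tests). let-7g over let-7a was lower in lung than in liver (-0.50, p = 0.0286 in the exact permutation test) and overlapped in the other pairs. In all, 30 ratio tests of this kind were made, those with neighbouring miRNAs and entry 1 included, and 14 of them had no overlap. Levels of all miRNAs tested had no overlap in 44.5% to 52.7%, depending on the comparison. Ratios between other miRNAs were not formed, so this count has no background of its own.

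Entry 1, which has the let-7 seed and no name, was higher in lung than in heart and liver. It had 17516, 28876, 30101 and 40662 normalized counts in the hearts of horses 27, 30, 32 and 34, 72052, 86091, 115576 and 50870 in lung, and 32486, 37653, 27891 and 26752 in liver. The means were 29289 ± 9465, 81147 ± 27137 and 31195 ± 4968 (SD, n = 4), and all 4 lungs lay above all other libraries. It stood near let-7c in heart and liver and above it in all 4 lungs. In a limma fit over all 331 entries that passed the filter, rows named by sequence included, it rose in lung versus heart by a log2 fold change of 1.47 (SE 0.29, 95% confidence interval 0.83 to 2.11, adjusted p = 0.00178) and in lung versus liver by 1.33 (SE 0.29, 0.69 to 1.97, adjusted p = 0.00284). In heart versus liver it differed by -0.14 (adjusted p = 0.726 in limma). Of all entries in that fit, 36% were called between lung and heart, 45.6% between lung and liver and 45% between heart and liver, and 0 of the 7 named members in any comparison.

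Within the library entry 1 also stood apart from let-7a. Its ratio to let-7a was 0.0811 to 0.185 in lung, 0.0435 to 0.0701 in heart and 0.0373 to 0.0755 in liver. The log2 ratio was higher in lung by 1.04 over heart and by 1.19 over liver, with no overlap (both p = 0.0286 in exact permutation tests). The same direction in 4 of 4 horses follows from that lack of overlap. With the 3 entries added to the sum, it took 7.84% ± 2.10 of the sum in lung, 3.41% ± 0.722 in heart and 3.25% ± 0.911 in liver (SD, n = 4). On that wider base the larger share of let-7a in lung shrank to 6.36 points over heart and 3.84 over liver, now with overlap in both pairs, while the other 6 differences in share kept their direction without overlap. let-7f in lung, at 11.9 to 14.7% of the wider sum, then no longer overlapped with liver, at 14.9 to 18.1%. Entry 2 was minor, at 314 ± 149 normalized counts in heart, 239 ± 106 in lung and 332 ± 115 in liver (SD, n = 4).

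Several let-7 genes lie beside genes of other miRNA families, and in mammals such neighbours can be made from 1 transcript. By the RefSeq gene table of a telomere-to-telomere horse assembly, which is not the assembly the reads were counted on and gives names and neighbours here but no positions, MIRLET7A lies with MIR100 and MIR125B, MIRLET7C with MIR99A-2 and MIR125B-2, MIRLET7E with MIR99B and MIR125A, and MIRLET7D with MIRLET7F (within 60 kb). MIRLET7A-2 had no miRNA gene within that distance. The table lists 1 name let-7a, and its values were not assigned to either gene. MIRLET7G lies within the span of WDR82, a gene for a protein of histone methyltransferase complexes.

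On the deposited scale, miR-100 was called in every pair of tissues and let-7a in none. It had 463994 to 842627 normalized counts in the hearts, 56556 to 101449 in the lungs and 31683 to 49442 in the livers. In limma it fell in lung versus heart by 2.78 on the log2 scale (adjusted p = 2.37e-06), rose in lung versus liver by 1.06 (adjusted p = 0.00313) and was higher in heart than in liver by 3.84 (adjusted p = 1.03e-07). All 3 calls held under CPM, with values of -1.45, 1.20 and 2.64. Its ratio to let-7a was 0.901 to 1.69 in the hearts, 0.114 to 0.160 in the lungs and 0.0554 to 0.0991 in the livers. The log2 ratio differed by -3.21 in lung versus heart, by 0.92 in lung versus liver and by 4.13 in heart versus liver (each p = 0.0286 in exact permutation tests). miR-100 was thus near or above let-7a in heart and a small part of it elsewhere.

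The pair of miR-99a and let-7c differed less. miR-99a was called lower in lung than in heart (-1.34, adjusted p = 0.0118 in limma) and not in the other pairs on the deposited scale. Under CPM this value was -0.01 and miR-99a was called in no pair, while ratios within a library do not change with the scaling. The ratio of miR-99a to let-7c was 8.37 to 14.2 in the hearts, 4.17 to 6.65 in the lungs and 3.84 to 8.01 in the livers, with log2 differences of -1.21 in lung versus heart and 1.21 in heart versus liver (both p = 0.0286 in exact permutation tests). Lung and liver overlapped, with a log2 difference of -0.00 and p = 1 in the exact permutation test. miR-125b-5p, which has genes beside both MIRLET7A and MIRLET7C, was called higher in heart than in liver (1.62, adjusted p = 0.000529 in limma) and in no other pair. In lung versus heart it passed the p but not the fold (-0.99, adjusted p = 0.0144 in limma). Under CPM the call in heart versus liver was lost (0.43, adjusted p = 0.302 in limma), and lung versus heart gave 0.34 (adjusted p = 0.433).

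The ratios of the neighbours of let-7e to let-7e overlapped in every pair of tissues. The ratio of miR-125a-5p to let-7e was 2.59 to 4.51 in the hearts, 2.29 to 4.78 in the lungs and 2.45 to 4.30 in the livers, with p of 0.543 to 0.886 in exact permutation tests. The ratio of miR-99b to let-7e was 0.488 to 1.08 in the hearts, 0.647 to 0.883 in the lungs and 0.241 to 0.731 in the livers, with p of 0.0857 to 0.714. On the deposited scale neither miR-99b nor miR-125a-5p was called in any pair. Under CPM miR-125a-5p was called lower in heart than in liver (-1.15, adjusted p = 0.000817 in limma), and miR-99b in no pair. The ratio of let-7d to let-7f, the members that lie side by side, overlapped in every pair too (0.0470 to 0.0915 in the hearts, 0.0763 to 0.132 in the lungs and 0.0536 to 0.0945 in the livers, p of 0.286 to 0.914 in exact permutation tests). These overlaps do not show that the ratios are equal, since 4 libraries per tissue leave wide ranges.

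**Figure D5:**
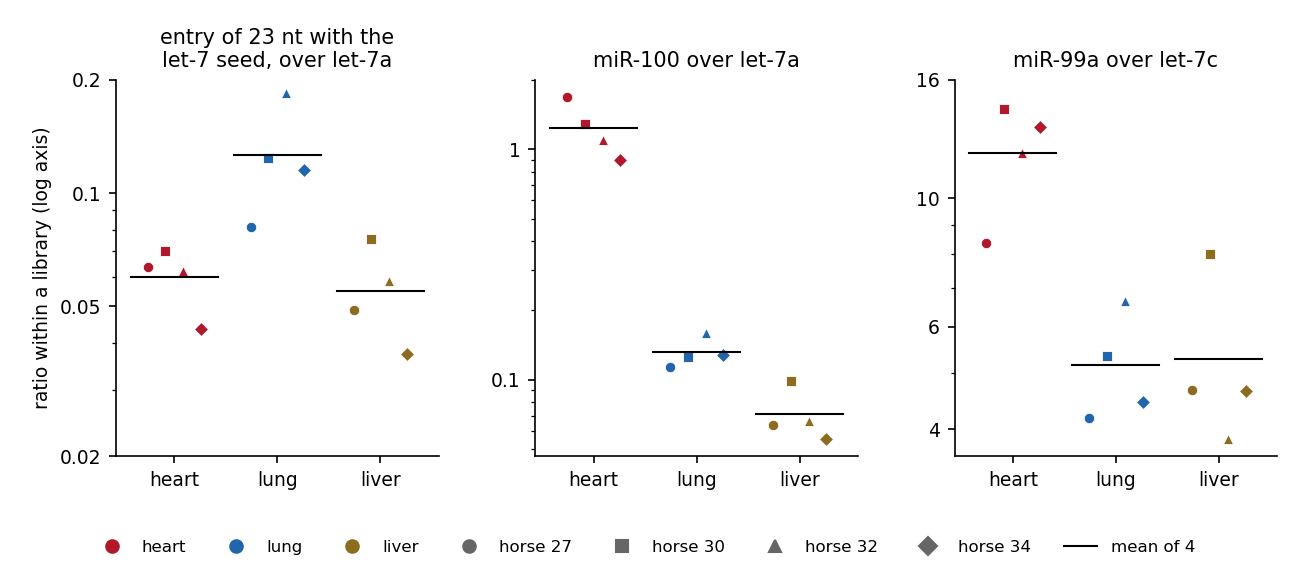
Ratios within a library on log axes, for the unnamed entry of 23 nt over let-7a, miR-100 over let-7a and miR-99a over let-7c, with a symbol for each horse and a bar at the mean of 4 libraries. The first ratio is higher in all 4 lungs (0.0811 to 0.185), and the others are higher in all 4 hearts (0.901 to 1.69 and 8.37 to 14.2) than in the other tissues.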

How the data were processed

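Small RNA libraries from heart, lung and liver of 4 horses (12 libraries) were made by the authors with a ligation kit. By the study's methods, reads were trimmed, filtered by length, counted with sRNAbench against miRBase and the EquCab3.0 genome (entries under 6 reads were dropped), and normalized by the authors with DESeq2. The submitters' notes list BWA and Trimmomatic besides bcl2fastq, FastQC and the authors' DESeq2, and give no versions. The tools for trimming and counting thus differ between the sources. The deposited values are a signal: counts that the authors divided by a size factor for each library. The table also holds the authors' own liver over lung comparison (fold changes and p-values), which was not used.

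Groups and horse numbers came from the sample labels. Known miRNAs that reached 10 normalized counts in 4 or more libraries (256) were tested on log2(value + 1) with limma 3.58.1 in R 4.3.3 (variance trend, 1 mean per tissue, all 12 libraries in 1 fit, Benjamini-Hochberg adjustment over all miRNAs tested). The pseudocount understates the change of low miRNAs and hardly touches the let-7 members. Calls were made at an adjusted p below 0.05 together with a log2 change of 1 or more in either direction. Shares and log2 ratios were compared with exact two-sided permutation tests of 4 against 4 libraries. The rest used scipy 1.17.1, pandas 2.3.3 and numpy 2.4.6 in Python 3.11.15, with figures from matplotlib 3.10.9.

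Depth was derived from the step of each library, and all values (100%) were whole multiples of it within 0.01. The same would hold if the lowest count were a smaller divisor of 6, so this check cannot test the minimum of 6 reads. A count test on reads was not run, since values under 6 reads are not listed. The reads in the table (3066869 to 9355513 per library) give the members a counting error far below the spread between horses.

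Named were all members, unnamed entries with the let-7 seed, the known genomic neighbours of let-7 genes, and for each member the 2 miRNAs most like it. The members and lists were chosen with earlier results of these data known. Alternatives were a pseudocount of 0.5 or 10, no filter, rescaling to the same total (CPM), TMM scaling, calls without a fold minimum, the horse as a block, other denominators and sums, and leaving out each horse or library. The fit over all rows, and some fits without 1 library, were added after the data were seen. The ratio tests and the exchange of tissue labels within horses were not among the tests planned beforehand.

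Libraries with 1 horse number came from 1 animal and are paired by it. Deviations from the tissue means correlated between -0.27 and 0.15 in the 12 pairs of libraries from the same horse (median -0.06) and between -0.27 and 0.36 in the 36 pairs from different horses (median 0.03). On simulated lung versus heart values of 256 miRNAs with 100 changed (20 simulations), the fit recovered 64.3% of log2 changes of 1.5 and 86.4% of those of 3, and called 1.03% of the unchanged miRNAs.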

Additional observations from a re-analysis of the deposited data

Results flagged for a closer look

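Of 54 groups of 4 libraries examined, 2 held a library far from the other 3 by Dixon's criterion at the 95% level, from the gap to the nearest library over the group's range. Chance alone gives about 1 in 20. The second entry with the let-7 seed, 18 nt long and above 0 in 12 of 12 libraries, had 535 normalized counts in the heart of horse 34 and 210 to 257 in the other hearts. That heart also had the highest normalized counts of 6 of the 7 members. The share of let-7e in the let-7 sum was 1.28% in the lung of horse 30 and 1.08 to 1.11% in the other lungs. All 4 values lay below those of heart and liver.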

How the results depend on the processing

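The 21 log2 fold changes of the 7 members in 3 comparisons kept their direction and their side of the threshold under a pseudocount of 0.5 or 10, no filter, TMM scaling, the adjusted p alone, the fit over all rows, and the replicate block. Rescaling to the same total per library (CPM) left 7 of 21 so. It called 12 of 21, 8 in the same direction and 4 in the reverse, and reversed 2 more that were not called. The reversed values were 1.20 (let-7c), 1.27 (let-7d), 0.83 (let-7e) and 0.96 (let-7f) in lung versus heart, and -1.05 (let-7d) and -1.10 (let-7f) in heart versus liver. Under CPM 5 members were called in lung versus heart and 7 in heart versus liver, in place of 0, and the log2 ratio of the sum was 1.54 and -1.42. The cause was not tested.

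With the horse as a replicate block, calls stayed at 0 in each comparison, with an adjusted p of 0.0528 for miR-98 in heart versus liver (limma), beside 0.0542 without it. For shares, the paired test of 4 horses cannot go below 0.125, so the count of differences fell from 8 to 0 by construction. With the unnamed seed entries in the denominator the count was 7, with both let-7a differences in lung lost and that of let-7f between lung and liver gained.

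Without the most abundant miRNA of each tissue, the members took 16.1% of known counts in heart, 25.9% in lung and 30.0% in liver. Leaving out a horse or a library gave 0 to 1 called members in heart versus liver (1 without the heart of horse 32 or of horse 34) and 0 in the other comparisons. It gave a log2 ratio of the sum of -0.20 to 0.75 in lung versus heart, -0.15 to 0.28 in lung versus liver and -0.57 to 0.11 in heart versus liver. The differences in share without overlap numbered 8 to 11, and cannot fall below 8 when libraries are left out. The members' part of known counts was 6.11 to 8.27% for heart, 19.7 to 22.8% for lung and 18.0 to 19.5% for liver. A count test on recovered reads was not run.

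Of the 21 log2 fold changes of members, none of them called, 10 changed sign without a horse or a library. For lung versus heart they ran from -0.33 to 0.26 (let-7c), -0.34 to 0.20 (let-7d), -0.80 to 0.28 (let-7f) and -0.30 to 0.67 (let-7g). For lung versus liver they ran from -0.011 to 0.43 (let-7a) and -0.52 to 0.11 (let-7f), and for heart versus liver from -0.61 to 0.042 (let-7a), -0.078 to 0.40 (let-7d), -0.34 to 0.14 (let-7e) and -0.32 to 0.47 (let-7f).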

Other observations

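Among the known miRNAs outside the family, those whose log2 levels followed each member most closely over the 12 libraries were named by their Pearson r, as a description. The 12 points share horses, tissues and the authors' scaling. miR-98 was most like miR-671-3p (r = 0.906) and miR-129b-5p (r = 0.869). let-7e was most like miR-185 (0.851) and miR-543 (0.750), and let-7c like miR-185 (0.738) and miR-92a (0.688). let-7a was most like miR-1839 (0.799) and miR-671-3p (0.669), let-7d like miR-26a (0.789) and miR-128 (0.779), let-7f like miR-128 (0.794) and miR-1388 (0.761), and let-7g like miR-7 (0.756) and miR-128 (0.743). For the sum of the 7 members, miR-1839 (0.788) and miR-103 (0.699) came first. The levels of miR-103 varied widely, with a limma SE of 3.74 in lung versus heart on the log2 scale. Its r may therefore rest on few libraries, which was not examined. miR-128 was thus among the 2 most alike for 3 members, let-7d, let-7f and let-7g, and miR-671-3p and miR-185 for 2 members each.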
